A study of Arabidopsis thaliana with 6 samples.

Results

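A group of 37 probe sets was modestly lower in the atm mutant than in the wild type, out of 22746 on the array after control probe sets were set aside. A probe set reads 1 transcript, or a few similar ones, through several short oligonucleotides, and its value here is a MAS5 signal intensity in arbitrary units. Members were chosen by their own signals: the highest of the 3 atm mutant signals divided by the lowest of the 3 wild type signals lay between 0.5 and 0.77, and the lowest wild type signal was at least 50. Organelle genes, the gene SIM, ATLIG4 and symbols starting CYP, UGT, GST or WRKY were left out. The groups therefore cannot overlap in any member, and every difference below describes the selection and carries no test. Of the 37, 17 had a named gene and 20 were unnamed in the annotation used here. These exclusions by name could not be applied to the 20 unnamed probe sets, which may hold genes of those kinds.

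ATM is a protein kinase that signals DNA double-strand breaks. In plants it activates the transcription factor SOG1, which raises the transcripts of genes for DNA repair and for cell cycle arrest. Besides SOG1, ATM phosphorylates proteins of the repair machinery itself.

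RNA came from whole Arabidopsis thaliana plants at growth stage 1.04, on ATH1 arrays, from 3 samples of an atm mutant line and 3 of the wild type, accession Col0. The allele is unsure, since the mutant appears under the names atm, ATM1 and AtATM3 mutant in different labels. A single stock code is given for the mutant, and the line and the loss of ATM cannot be told apart. All plants grew on 0.5 strength Murashige and Skoog medium with 1% sucrose at 22 °C, in 9 hours of light and 15 hours of dark a day. The series title speaks of X-ray inducible transcripts, but the labels give no irradiation, dose or time, and no label says that replicates came from separate cultures. In RNA from whole plants, fewer cells of a type and less transcript per cell cannot be told apart.

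The arrays did not separate by genotype alone. Across the 13895 probe sets tested with limma, wild type replicate 1 correlated at a Pearson r of 0.965 with atm mutant replicate 2, but at 0.926 and 0.930 with the other wild type replicates, on the log2 scale. The GAPDH control signal at the 3' end over that at the 5' end was 1.56, 1.49 and 1.40 on atm mutant replicates 1, 2 and 3, against 1.41, 1.08 and 1.10 on wild type replicates 1, 2 and 3. This sign of RNA quality moved with genotype apart from wild type replicate 1, and its part in the differences below was not tested. The same ratio of ubiquitin was 2.72, 2.33 and 2.91 on atm mutant replicates 1, 2 and 3, against 2.72, 3.15 and 3.25 on the wild type ones. Wild type replicates 2 and 3 thus lay below the atm mutant arrays for GAPDH but above them for ubiquitin. The ratio of actin was 9.10 to 9.94 on atm mutant arrays and 8.35 to 11.1 on wild type arrays. Of the root markers 3 of 4 were named on the array. Their summed signal was 3702, 3080 and 3865 on atm mutant replicates 1, 2 and 3, against 3091, 3477 and 3606 on the wild type ones. Of the leaf markers 1 of 4 was named, RCA. It had signals of 5177, 5520 and 4826 in the atm mutant and 6177, 4133 and 4529 in the wild type. Wild type replicate 1 and atm mutant replicate 2 thus had the lowest root sums and the highest RCA signals of the arrays. PYK10 made up most of the root sum, with 2957 and 2931 on these arrays. PRX57 was also lowest on them, at 108 and 114. EXPA7, a dim root marker, was the lowest of its genotype on wild type replicate 1, at 25.7. On atm mutant replicate 2 EXPA7 was instead the highest of its genotype, at 34.1. The part of tissue content in the differences below was not tested. No seed or flower marker of the list was named. No probe set was named for ATM, so the genotype was not checked at its own transcript.

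The same rule with the genotypes exchanged found 5 probe sets. After the exclusions, 9191 probe sets had a lowest wild type signal of at least 50, and the 37 members were 0.403% of them. The 5 were 0.0542% of the 9221 with a lowest atm mutant signal of at least 50. The same exclusions hold for the other counts and shares of this paragraph. In proportion, members outnumbered the swapped probe sets more at smaller ratios. Between 0.5 and 0.6 there were 5 members and 0 with genotypes swapped, between 0.6 and 0.7 there were 17 and 1, and between 0.7 and 0.77 there were 15 and 4. Just above the limit, from 0.77 to 0.85, the counts were 36 and 15, and from 0.85 to 0.9 they were 42 and 28. Below the lower limit, 31 further probe sets had a ratio under 0.5, and 0 did with genotypes swapped. Over the probe sets left at these levels the 3 atm mutant signals lay below all 3 wild type signals in 5.48%, and above them in 3.96% of those tested in that direction.

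These counts depended on the arrays used, and most on the 2 that resembled each other. Without wild type replicate 1 and atm mutant replicate 2 the rule gave 178 probe sets, and 131 with genotypes swapped. Without atm mutant replicate 2 alone it gave 101 and 55, and without wild type replicate 1 alone 95 and 47. With any 1 of the other arrays left out it gave 41 to 51, and 9 to 15 swapped. With fewer arrays the ratio can only stay or become smaller, so more probe sets meet the upper limit by construction. Of the 37 members 28 stayed inside the limits on the 4 arrays, 9 passed below 0.5, and 150 other probe sets joined. The excess over the swapped count was thus far smaller in proportion on the 4 arrays. No other pair of arrays was left out, so the part of the number of arrays in this was not tested.

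**Figure D1:**
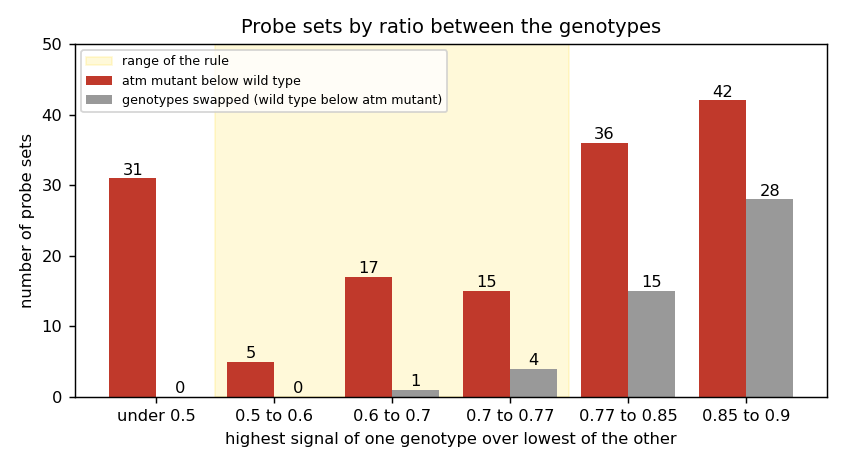
Number of probe sets (vertical axis) by the highest signal of one genotype over the lowest signal of the other (horizontal axis), for atm mutant below wild type and for the genotypes swapped. The shaded range holds the 37 members as bars of 5, 17 and 15, beside swapped bars of 0, 1 and 4.

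Among the named members, the genes with the largest differences in level include a pair that act on damaged DNA. AT1G80850 encodes a member of the DNA glycosylase superfamily, enzymes that cut damaged bases from DNA. Its signals were 31.7, 25.3 and 42.6 on atm mutant replicates 1, 2 and 3, against 73.5, 89.2 and 95.0 on wild type replicates 1, 2 and 3. The atm mutant mean was 33.2 ± 8.78 and the wild type mean 85.9 ± 11.1 (SD, n = 3 each), or 38.0% of wild type by geometric means. AT1G49980 encodes DNA polymerase kappa, a translesion polymerase that copies past damaged bases. Its signals were 23.7, 38.3 and 30.9 on atm mutant replicates 1, 2 and 3, against 62.5, 85.3 and 95.3 on wild type replicates 1, 2 and 3. The highest atm mutant signal fell on replicate 2 and the lowest wild type signal on replicate 1, the arrays that resembled each other. The log2 difference of AT1G49980 was -1.39 on 6 arrays and -1.74 on the other 4. Both genes were dim in the atm mutant, at mean percentiles of 45.1 for AT1G80850 and 43.6 for AT1G49980. The sizes of their differences are therefore uncertain.

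Role groups were assigned once the members were known. The share of each group over the array was not computed, so nothing is read from group sizes. The ubiquitin and proteolysis group held 5 named members, with log2 differences of atm mutant minus wild type from -1.33 to -0.78. AT2G18600, of the ubiquitin-conjugating enzyme family, had the lowest of them, with signals of 38.8, 19.2 and 26.5 on atm mutant replicates 1, 2 and 3, against 73.3, 63.4 and 68.0 on the wild type ones. Of the 6 arrays, atm mutant replicate 2 was the lowest for this gene. Its atm mutant signals were dim, at a mean percentile of 41.5, so the size of its difference is uncertain. AT4G33160 encodes an F-box protein, a class that selects targets for ubiquitin ligases. It had signals of 43.6, 29.7 and 43.6 in the atm mutant and 66.3, 74.4 and 95.8 in the wild type. AT5G10650 encodes a RING/U-box protein, with signals of 37.7, 34.5 and 34.5 in the atm mutant and 62.0, 56.1 and 74.0 in the wild type. SAY1, of the ubiquitin-like superfamily, had 77.5, 69.9 and 81.4 in the atm mutant and 126, 129 and 155 in the wild type. For these last 2 the atm mutant arrays lay within a narrow range, and each was about as different, at -0.84 on the log2 scale. AT1G30600, a subtilase, averaged 39.97 ± 4.56 in the atm mutant and 68.9 ± 10.4 in the wild type (SD, n = 3 each), with a log2 difference of -0.78. AT4G33160, AT5G10650 and AT1G30600 were also rather dim in the atm mutant, at mean percentiles of 48.8, 47.0 and 49.5. The sizes of their differences are uncertain too.

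In the RNA group AT2G47680 encodes a helicase with a CCCH zinc finger. Its signals were 42.1, 24.3 and 32.2 on atm mutant replicates 1, 2 and 3, against 70.6, 92.5 and 66.0 on the wild type ones, a log2 difference of -1.24. AT4G02400 encodes a U3 ribonucleoprotein of the Utp family, whose members process ribosomal RNA in yeast. It had 47.8, 31.3 and 43.8 in the atm mutant and 67.8, 68.7 and 73.3 in the wild type, a log2 difference of -0.79. In both genes atm mutant replicate 2 was the lowest array. AT2G47680 was also dim in the atm mutant, at a mean percentile of 45.0, and AT4G02400 lay at 49.95. In the order of the reference table the protein-coding gene just before AT4G02400 is PARP2, a poly(ADP-ribose) polymerase, and the gene just before AT1G80850 is WRKY40. Neither was named on the array.

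Redox and metabolism held a pair of members. AT2G37240, of the thioredoxin superfamily, had signals of 49.5, 97.7 and 59.9 on atm mutant replicates 1, 2 and 3, against 182, 147 and 165 on the wild type ones, a log2 difference of -1.31. The atm mutant replicate 2 signal was the highest of its genotype, above the other 2 by more than they differed from each other. MCCB, the beta subunit of 3-methylcrotonyl-CoA carboxylase in leucine breakdown, had 379, 512 and 403 in the atm mutant and 769, 791 and 765 in the wild type. The wild type arrays were very close for MCCB, with an SD of 14.2 on a mean of 775, while the atm mutant mean was 431 ± 71.1 (SD, n = 3 each). MCCB had the highest wild type mean of the named members, followed by AT5G27760.

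AT5G27760 belongs to the hypoxia-responsive family. Its signals were 359, 362 and 317 on atm mutant replicates 1, 2 and 3, against 577, 686 and 728 on the wild type ones, or 52.3% of wild type by geometric means. AT5G49990, a xanthine/uracil permease family member of the membrane transport group, had 96.7, 93.0 and 92.1 in the atm mutant and 154, 142 and 143 in the wild type. Replicates of this gene were tight in both genotypes, and its log2 difference of -0.64 was among the smallest of the members.

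For another 4 named members only a broad family or no role is known. AT1G03440, a leucine-rich repeat protein, had signals of 60.7, 49.7 and 55.9 in the atm mutant and 151, 100.5 and 134 in the wild type. AT1G72790, of the hydroxyproline-rich glycoprotein family, had 47.7, 56.2 and 66.2 in the atm mutant and 137, 89.5 and 107 in the wild type. In both genes the spread of the wild type was the wider. AT4G35905 had 38.1, 44.9 and 39.99 in the atm mutant and 65.3, 78.8 and 64.6 in the wild type. AT4G38225 had 243, 248 and 245 in the atm mutant and 441, 379 and 326 in the wild type, the smallest log2 difference of the named members at -0.63. Its atm mutant arrays differed by little and its wild type arrays by more, and it lay near the upper limit of the rule, with a ratio of 0.761.

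**Figure D2:**
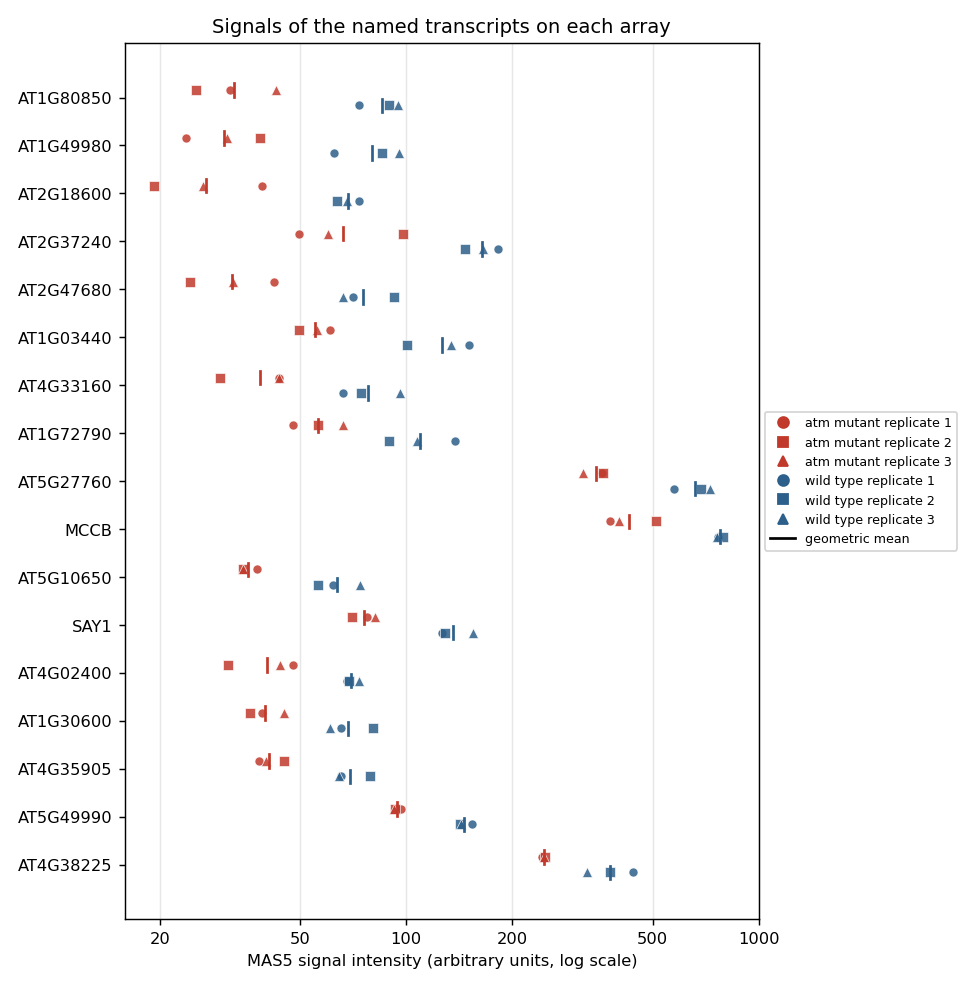
MAS5 signal intensity on a log axis for the 17 named members, atm mutant above wild type in each row, with each of the 6 arrays as a point and geometric means as bars. Rows run from the largest log2 difference (AT1G80850, -1.40) to the smallest (AT4G38225, -0.63), and in no row do the genotypes overlap, as the rule requires.

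The 20 unnamed members had geometric mean signals 1.54-fold to 2.82-fold lower in the atm mutant, with a median of 1.91-fold. The 17 named members were 1.55-fold to 2.63-fold lower, also with a median of 1.91-fold. Of the unnamed members 9 were at least 2-fold lower, and of the named members 7. Names covered 45.9% of the members and 51.0% of the 9191 probe sets at these levels. The unnamed probe set 249784_at had the largest computed log2 difference, with signals of 31.9, 18.5 and 18.9 on atm mutant replicates 1, 2 and 3, against 70.5, 55.3 and 64.0 on the wild type ones. Its atm mutant signals were dim, at the 44.2, 33.7 and 34.9 percentiles of their arrays, so the size of this difference is uncertain. The brightest member, 261749_at, was also unnamed and had signals of 779, 882 and 661 in the atm mutant and 1167, 1215 and 1383 in the wild type. In 255578_at wild type replicate 1 stood apart, with signals of 107, 103 and 112 in the atm mutant, against 157, 319 and 295 in the wild type. In 254385_s_at wild type replicate 1 was the highest instead, at 303 beside 171 and 173 on the other wild type arrays, while the atm mutant had 102, 116 and 118.

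**Figure D3:**
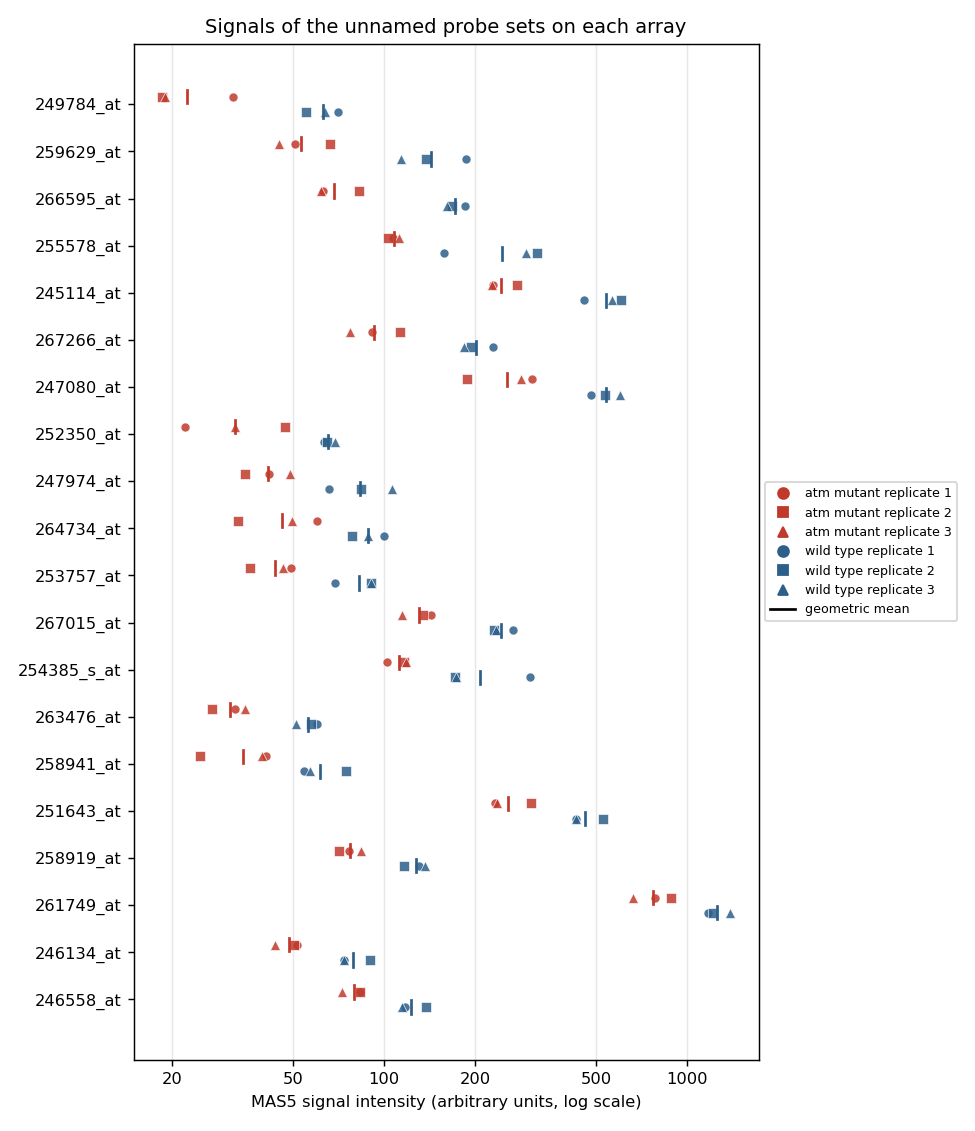
MAS5 signal intensity on a log axis for the 20 unnamed members, atm mutant above wild type in each row, with each of the 6 arrays as a point and geometric means as bars. Rows run from 249784_at (log2 difference -1.49) to 246558_at (-0.62), and wild type replicate 1 stands apart from the other wild type arrays in 255578_at and 254385_s_at.

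At the edges of the rule, 266595_at had a ratio of 0.511 just inside the lower limit, and 247192_at, which matches several genes, had 0.499 just outside it. At the upper limit 264734_at was inside at 0.765 and AT4G18340 outside at 0.773. By wild type level 263476_at was inside with a lowest wild type signal of 51.4, and AT1G23000 outside with 46.8. SIM, the cell cycle inhibitor SIAMESE, met the limits with a ratio of 0.741 but was left out by name.

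The difference in log2 signal over the 37 members had a median of -0.94 and ran from -1.49 to -0.62, beside a median of -0.0013 over all 9191 probe sets at these levels. The 31 probe sets with a ratio under 0.5 had a median of -2.50 and reached -5.68. By geometric means 16 of the 37 members were at least 2-fold lower, because the rule sets the extreme arrays against each other and the means lie further apart. Members were spread over wild type means from 56.3 to 1255. There were 17 with a wild type mean under 100, 13 from 100 to 300, and 7 of 300 or more, which were 0.636%, 0.301% and 0.318% of the probe sets in those ranges. The median log2 difference in the 3 ranges was -0.94, -0.96 and -0.86.

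**Figure D4:**
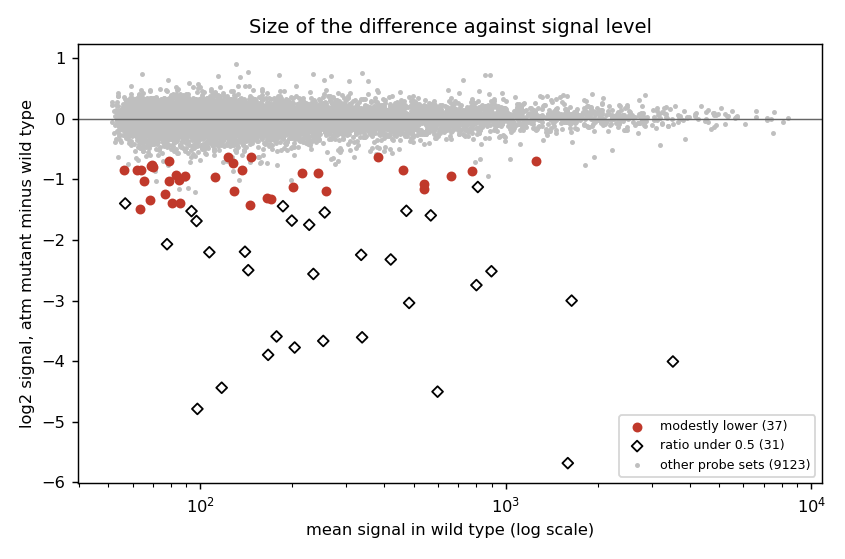
Log2 signal of atm mutant minus wild type (vertical axis) against the mean wild type signal on a log axis, for the 37 members, the 31 probe sets with a ratio under 0.5 and the other 9123 probe sets at these levels. The members lie between -1.49 and -0.62 at wild type means from 56.3 to 1255, mostly between the other probe sets at the same level and those with a ratio under 0.5.

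Limma, fitted to all 13895 tested probe sets, called 31 lower in the atm mutant at an adjusted p under 0.05, which is 0.223%. Of the 37 members 2 were among these calls, the unnamed probe sets 266595_at and 245114_at. Since the rule used the same contrast, nothing is read from that count. The probe set 245114_at had signals of 228, 274 and 227 in the atm mutant, against 457, 603 and 565 in the wild type.

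The highest atm mutant signal lay on replicates 1, 2 and 3 in 14, 14 and 9 members, and the lowest wild type signal on replicates 1, 2 and 3 in 16, 11 and 10. Without wild type replicate 1 and atm mutant replicate 2, the log2 difference over the members had a median of -0.94 and ran from -1.74 to -0.53. No member's fold moved by more than 1.27 times, and 15 of the 37 differed more on the 4 arrays. AT1G49980, AT2G37240 and the unnamed 255578_at were among those, at -1.74, -1.52 and -1.48. AT2G18600 differed less, at -1.03 on the 4 arrays against -1.33 on all 6.

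**Figure D5:**
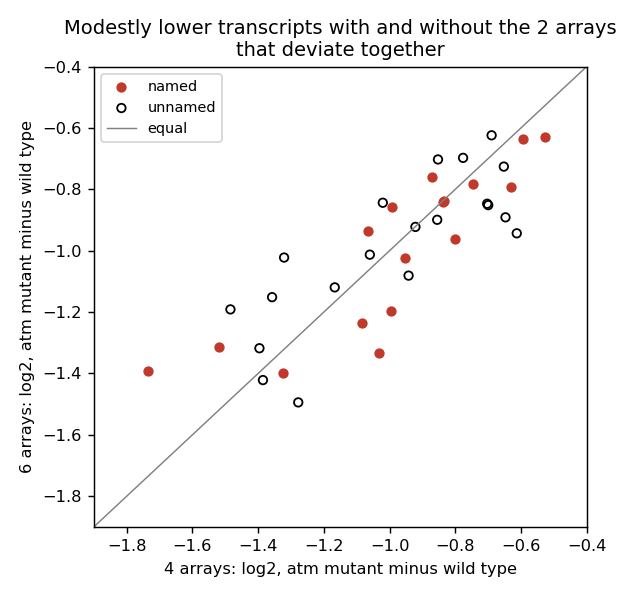
Log2 signal of atm mutant minus wild type on all 6 arrays (vertical axis) against the same on the 4 arrays left without wild type replicate 1 and atm mutant replicate 2 (horizontal axis), for named and unnamed members. Points lie near the line of equal values, and AT1G49980 is the farthest left at -1.74.

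Of the 34 protein-coding genes next to the 17 named members in the reference order, 15 were named on the array. Their log2 difference had a median of -0.02 and ran from -1.36 to 1.00, with 8 below zero. In none of the 15 did all atm mutant signals lie below all wild type signals. The share was 5.48% over the probe sets with a lowest wild type signal of at least 50. Several of the 15 were below that level. So few genes cannot be told apart from that share, and nothing is read from the count. The extremes were dim: AT4G11730, beside SAY1, had a signal of 4.63 ± 4.19 in the atm mutant and 9.06 ± 3.21 in the wild type (SD, n = 3 each), and AT4G33170, beside AT4G33160, had 23.3 ± 2.76 in the atm mutant and 12.5 ± 5.77 in the wild type. By chromosome, 5, 3, 0, 6 and 3 of the named members lay on chromosomes 1 to 5, where 25.8%, 14.8%, 20.4%, 14.8% and 23.9% of the named probe sets at these levels lay. None of the 17 genes had another named probe set on the array.

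Of 76 loci in lists of DNA damage response, replication, cell cycle arrest, NAC factors and early stress response, 7 were named on the array. Of these 0 were members, beside 0.403% of the probe sets left at these levels after the exclusions. The rule bars SIM and LIG4 by name, and SIM otherwise met its limits, with signals of 114, 95.0 and 145 in the atm mutant, against 196, 195 and 199 in the wild type. Limma called 0 of the 7 after adjustment over all probe sets. At an unadjusted p under 0.05 it passed 2, SIM and MND1, beside 3.36% of all 13895 tested. The lists were chosen with earlier results of these data known, so nothing is read from this count. MND1, a meiotic recombination gene, had a ratio of 0.514 and signals of 16.9, 8.65 and 11.0 in the atm mutant, against 33.4, 40.2 and 32.9 in the wild type. It lay inside the ratio limits but below the wild type level that the rule asks for. DNA ligase IV, LIG4, had signals of 53.5, 31.6 and 33.4 in the atm mutant and 58.1, 46.5 and 61.2 in the wild type, so that the genotypes overlapped. FAN1, a nuclease, had a log2 difference of -0.11, MCM7, of the replicative helicase, 0.08, and AT3G12710, another DNA glycosylase superfamily member, 0.14. AT3G12710 had signals of 128, 173 and 118 in the atm mutant that overlapped with 139, 114 and 124 in the wild type. In AT1G80850 the rule itself barred overlap, so the 2 genes are not compared on this. ZAT10, an early stress factor, had a signal of 140 on atm mutant replicate 2 and of 307 on wild type replicate 1, the arrays that resembled each other, and of 30.8 to 33.4 on the other atm mutant arrays. The other 69 loci had no named probe set here, and some may be among the 20 unnamed members.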

How the data were processed

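Per the submitters' processing notes, MAS5 and GCOS were used, and the authors deposited a linear signal intensity for each probe set on each array. How the arrays were scaled or filtered is not given in the sources used here. A single scaling factor per array leaves differences in distribution shape in place. Samples were grouped by their titles. Affymetrix controls (64 probe sets) were removed. Of the 22746 probe sets, 13513 had 1 gene in the platform annotation, 503 several and 8730 none. Gene IDs were looked up in the RefSeq table of TAIR10.1 for current symbols and for gene order, without coordinates. The rule was applied to the deposited signals. The deposited intensities were also taken to log2 with no pseudocount, and limma 3.58.1 in R 4.3.3 (eBayes with an intensity trend, Benjamini-Hochberg adjustment) was fitted to the 13895 probe sets that exceeded the array's 40th percentile on 3 or more of 6 arrays, as background only. No label says that replicates were separate cultures, so its p-values may reflect technical spread alone. An exact permutation test of 3 against 3 cannot go below 0.1. The rule count and limma were tested on simulated data. The precision is limited by the number of arrays.

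The members and lists were chosen with earlier results of these data known, and role groups were assigned once the members were known. By rule, signals on all arrays are given for the 12 named members with the lowest ratio of geometric means, the 3 with the highest wild type mean, and up to 4 in each role group. The unnamed probe sets, neighbours and list genes given by value were chosen after their values were seen. Alternatives varied scaling, limits, filters, arrays and pairing. Figures were drawn with matplotlib 3.10.9. Promoter sequences were not used here.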

Additional observations from a re-analysis of the deposited data

How the results depend on the processing

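Under quantile normalization and under scaling of the arrays to 1 median the rule gave 40 and 38 probe sets, 37 and 36 of them among the 37, with 6 and 5 for genotypes swapped. With a lowest signal of at least 25 it gave 54, and 20 swapped. With at least 100 it gave 19, and 1 swapped. An upper limit of 0.7 gave 22, and 1 swapped, and a limit of 0.85 gave 73, and 20 swapped. With any 1 array left out it gave 41 to 101 probe sets, and 9 to 55 swapped. The 4 arrays, chosen after seeing the data, gave 178 and 131. The median log2 difference over the members was -0.97 to -0.92 with quantile normalization, median scaling or atm mutant arrays left out, and -1.001 to -0.92 with wild type arrays left out. The choice of members fixes its sign. Of 153 values of named members under 9 alternatives, 152 moved by less than the spread between replicates. The exception was AT1G49980 on the 4 arrays. Most of these alternatives left out 1 of 3 arrays, which moves a group mean by less than that group's SD by construction. The count is therefore no test of stability. Limma called 28 to 34 probe sets under other normalizations and filters, 13 to 36 with 1 array left out (13 without wild type replicate 2 and 13 without wild type replicate 3), and 233 on the 4 arrays, 157 lower and 76 higher. The cause of these changes was not tested.

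Deviations of same-numbered arrays from their group means correlated at -0.461, -0.460 and 0.379, so the numbers were not taken to pair the samples. With the number as a replicate block, limma called 11 probe sets. Same-numbered ratios between the limits in all 3 pairs were found for 23 probe sets, 8 of them among the 37, and for 11 with genotypes swapped. The block cannot change a difference of means in this balanced design, so the median of -0.94 says nothing about it. The planned promoter motif comparison was not run, and its alternatives with it.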
